A study of Mus musculus with 8 samples.

Results

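The 37 genes described here encode the DNA replication machinery and the factors that carry a cell into S phase. They were chosen by symbol, with no measured value entering the choice, and all 37 were found among the 55471 gene entries of the count table and passed the filter on low counts that left 22153 genes for testing. The libraries are bulk RNA sequencing, with paired reads of 150 bases, of cells sorted by flow cytometry from the femurs of newborn mice aged 3 to 5 days. The sorted populations were skeletal stem cells (SSC), which can form bone, cartilage and stroma, and BCSP, the bone, cartilage and stromal progenitors downstream of them. Wild-type mice were compared with Tet1 knockout (KO) mice, which lack function of a dioxygenase that oxidises methylated cytosine in DNA. The 4 groups were wild-type SSC, KO SSC, wild-type BCSP and KO BCSP, with 2 libraries in each, numbered round 1 and round 2. The wild-type libraries are labelled with the same strain as the KO ones, B6;129S4-Tet1tm1.1Jae/J. Whether libraries of a group or of a round share animals, and the sex of the pups, are not given in the sources used here, so p-values reflect only how far these libraries spread, which may be technical.

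Replication is prepared in G1, when CDC6 and CDT1 load rings of the MCM2 to MCM7 helicase onto origins. At the start of S phase cyclin E and its kinase, with MCM10, CDC45 and the GINS complex, switch these rings on. DNA polymerases, the PCNA clamp and its RFC loader then copy both strands while the CAF-1 chaperone lays down histones. E2F transcription factors, freed when cyclin-dependent kinases phosphorylate the retinoblastoma protein, drive many of these genes together, so their transcripts are widely read as a mark of cycling cells. In the growing femur such cells lie chiefly in the proliferative cartilage of the growth plate and in early progenitors.

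Library totals ran from 104782544 to 168004119 counts, of which the 37 genes held 62571 to 117674, or 0.0491% to 0.0774%. Levels are given below as CPM (counts in every 1000000 counts of the library) after trimmed-mean scaling. The sort was visible in Eng, the gene of the CD105 marker, at 2.92 ± 0.653 CPM in SSC and 42.02 ± 11.2 CPM in BCSP (SD, n = 4; edgeR, adjusted p = 1.26e-06). Chondrocyte markers summed to 276695 to 361348 CPM in the 8 libraries, with all 6 of 6 counted. The osteoblast list summed to 110.1 to 287 CPM. Tet1 levels were 15.6 and 19.6 CPM in wild-type SSC, 21.6 and 10.98 in wild-type BCSP, 7.26 and 11.8 in KO SSC and 10.8 and 11.97 in KO BCSP (rounds 1 and 2 in turn). For Tet1 the wild-type BCSP library of round 2 was above 2 of the KO libraries and below the other 2, and the labels do not say which exons the allele lacks, so counts over the whole gene check the labels only weakly.

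All replication genes had counts in every library. Per kilobase of exon, the scale on which genes can be compared with each other, the sliding clamp gene Pcna stood highest at 26.1 CPM per kb on average, above 95.4% of all tested genes. The 6 genes of the MCM helicase ring spanned ranks 2 to 14 of the 37, with Mcm4 at 10.3, Mcm6 at 8.88, Mcm3 at 8.45, Mcm7 at 7.73, Mcm5 at 6.43 and Mcm2 at 4.36 CPM per kb. Cdt1, the loading factor, was at 7.44 and Rrm2, the small subunit of ribonucleotide reductase, at 7.399 CPM per kb. The loader Cdc6 was far lower at 0.843, next to the GINS subunit Gins3 at 0.836 CPM per kb. By role, the median level per kb was 7.58 for the 8 initiator and licensing genes and 3.42 for the 4 genes of nucleotide supply. It was 3.31 for the 7 genes of the clamp, its loader and lagging-strand maturation, 1.54 for the 6 helicase activation genes and 1.495 for the 6 polymerase and primase genes. Fen1, the flap nuclease, was lowest at 0.146 CPM per kb from only 12 to 80 counts. Of its exon bases, 84.2% lie under exons of other genes on the opposite strand, chiefly Tmem258 with 2015 to 7332 counts, and reads there may have been given to another gene or to none, so its level is uncertain. The same holds to a lesser degree for Gins2, with 67.3% of its exon bases shared, and Chaf1a, with 52.5%. Pcna also has a near-identical processed copy, Pcna-ps2, which held 84 to 440 counts beside 6044 to 12749 for Pcna.

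**Figure D1:**
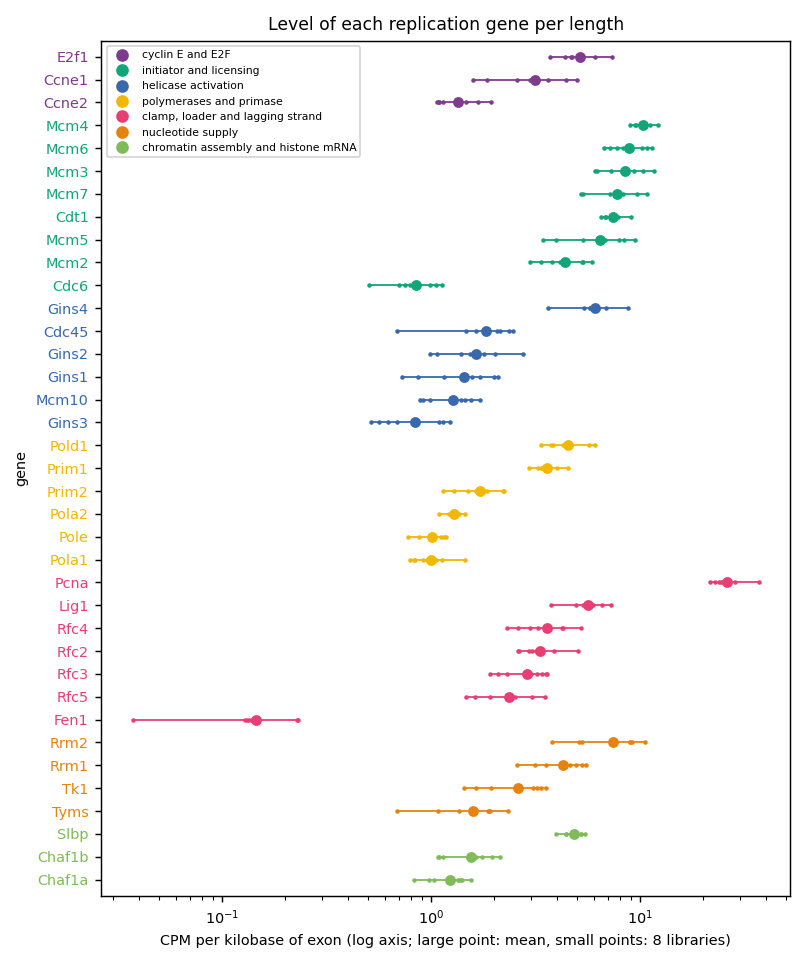
Level of each of the 37 genes in CPM per kilobase of exon on a log axis, with small points for the 8 libraries, a large point for their mean and colours for the 7 roles. Pcna sits at the top at 26.1 and Fen1 at the bottom at 0.146, and the 6 genes Mcm2 to Mcm7 lie between 4.36 and 10.3.

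The promoters show what many of these genes share in sequence. RefSeq promoter windows (build GRCm38.p6, from 250 bases before to 50 after the annotated start) were at hand for 29 of the 37 genes, and they were searched on both strands for the E2F words TTTCCCGC, TTTGGCGC, TTTCGCGC and TTTGCCGC. At least 1 word was found for 11 of the 29 genes, or 37.9%, against 2.61% of the 27025 genes with a window. Some genes have more than 1 window, and a match in any of them counted for the gene. The 11 genes were Cdc6, Cdt1, Gins3, Lig1, Mcm3, Mcm5, Mcm6, Mcm7, Pola1, Pold1 and Rfc3. The pentamer CCAAT was found for 16 of the 29 genes (55.2%, against 41.1% of all genes). TTTGAA, the core of the cell cycle homology region (CHR) of genes that peak in mitosis, was found for 4 (13.8%, against 20.2%). Of the stretches printed, those of Mcm6 and Mcm5 show a run that both share, that of Pola1 a single word, and that of Rrm2 the promoter of the gene called between rounds. Mcm6 and Mcm5 carry the same 12-letter run, each as the reverse complement of the other, in which 2 words on opposite strands overlap. The run was found in the windows of 4 genes, 0.0148% of those searched: Mcm5, Mcm6, Msh3 and Mycn. Capitals mark E2F words in the stretches of Mcm6 (chr1:128359741-128359825, minus strand), Mcm5 (chr8:75109334-75109393, plus strand) and Pola1 (chrX:93632256-93632315, minus strand). In that of Rrm2 (chr12:24708174-24708233, plus strand) they mark CCAAT, as none of the 4 E2F words is in its window. No stretch overlaps an annotated exon, and a match is a matter of letters, not of binding.
Mcm6: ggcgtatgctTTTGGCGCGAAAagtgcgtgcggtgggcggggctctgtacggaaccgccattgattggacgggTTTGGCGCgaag
Mcm5: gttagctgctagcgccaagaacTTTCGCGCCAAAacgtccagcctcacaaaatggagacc
Pola1: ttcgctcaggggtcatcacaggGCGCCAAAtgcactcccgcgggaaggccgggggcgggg
Rrm2: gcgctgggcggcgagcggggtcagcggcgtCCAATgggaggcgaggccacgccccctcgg

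In KO libraries most replication genes were counted somewhat below wild type in both populations, though no single gene passed the test. The 37 genes summed to 733 and 570 CPM in wild-type SSC (rounds 1 and 2) and to 643 and 476 CPM in KO SSC. In BCSP they summed to 729 and 821 CPM in wild type and to 649 and 514 CPM in KO. The KO mean was thus 0.859 of wild type in SSC, where the ranges overlap, and 0.750 in BCSP, where they do not. In bulk libraries fewer cells of a kind and less RNA per cell cannot be told apart.

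Gene by gene, the log2 fold change of KO over wild type was below 0 for 33 of 37 genes in SSC, with a median of -0.22, and for 35 of 37 in BCSP, with a median of -0.45. Over all tested genes the medians were 0.01 in both populations, with 48.6% and 49.2% of genes below 0. Over the 12639 tested genes with a mean CPM of at least 1, the medians were 0.003 in SSC and -0.08 in BCSP. Of those genes 49.4% were below 0 in SSC and 56.9% in BCSP. None of the 37 passed an adjusted p of 0.05 by edgeR in SSC, where 0.00451% of all tested genes did, and 0 had an unadjusted p under 0.05. In BCSP none passed either, against 0.00451% of all genes, and 5 had an unadjusted p under 0.05, all lower in KO: Rfc2, Mcm2, Mcm3, Mcm5 and Rfc4. At that unadjusted level 655 of the 22153 tested genes were lower in KO and 716 higher. Among those with a mean CPM of at least 1, 523 were lower and 383 higher. The KO effect in SSC minus that in BCSP had a median of 0.22, with 29 of 37 genes above 0, and passed the test for 0 genes, against 0% of all tested genes, with 0 at an unadjusted p under 0.05. Fitted over both populations with population as a term, 35 of 37 genes were below 0, with a median of -0.36 against 0.02 over all tested genes. Over tested genes with a mean CPM of at least 1 the median was -0.04, with 54.6% below 0. Again none of the 37 passed, against 0.0135% of all genes, while 8 had an unadjusted p under 0.05, all lower in KO. At that level 878 of the 22153 tested genes were lower and 875 higher. Among those with a mean CPM of at least 1, 730 were lower and 636 higher. DESeq2 and limma-voom also called 0 of the 37 in each of these 4 comparisons.

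The median was below 0 in each of the 4 pairs of libraries that share a population and a round. KO minus wild type had a median of -0.18 in SSC of round 1 with 29 genes lower, and of -0.31 in SSC of round 2 with 31 lower. In BCSP it was -0.17 in round 1 with 28 lower, and -0.74 in round 2 with 34 lower. In the fit for BCSP the median was -0.16 without both round 2 BCSP libraries and -0.20 without the round 2 KO BCSP library alone. In SSC it was -0.04 without the round 1 wild-type library and likewise without the round 2 KO library, but -0.43 without the round 2 wild-type library and -0.46 without the round 1 KO library. Over both populations it was -0.24 without the round 2 KO BCSP library. Across the 12636 genes of at least 1 CPM, the KO effect also moved with exon length, with a Spearman rho of 0.365 over both populations. With length offsets in the model the median of the replication genes was -0.26, and that of the round 2 BCSP pair -0.45. Among markers of other cell types, the skeletal muscle list (3 of 3 counted) summed to 4.88 to 18.0 CPM in wild type and 1.63 to 4.86 in KO. That sum was mostly Acta1, at 4.87 to 17.5 CPM against 1.48 to 4.31, while Myod1 and Ckm overlapped between genotypes. The mast cell and megakaryocyte list (4 of 4) summed to 1.69 to 2.79 against 2.96 to 4.78, though its genes Itga2b, Kit and Pf4 each overlapped. In BCSP alone, the sums of 3 more lists did not overlap, and those of the lists not named here did. With 2 libraries against 2, ranges often part by chance. In BCSP the columnar and prehypertrophic chondrocyte list (5 of 5) was at 2829 to 3319 CPM in wild type and 1710.2 to 2597 in KO. Its genes Ihh and Pth1r each overlapped, and its sum was mostly Matn3, at 1922 to 2239 CPM against 1029 to 1744. The endothelial list (4 of 4) was at 0.314 to 0.682 and 1.36 to 2.56, and the pericyte and smooth muscle list (3 of 3) at 25.8 to 29.1 and 31.8 to 42.2. Within the last list Acta2 and Rgs5 each overlapped, as did Pecam1 of the endothelial list. The part of these lists in the KO difference was not tested.

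**Figure D2:**
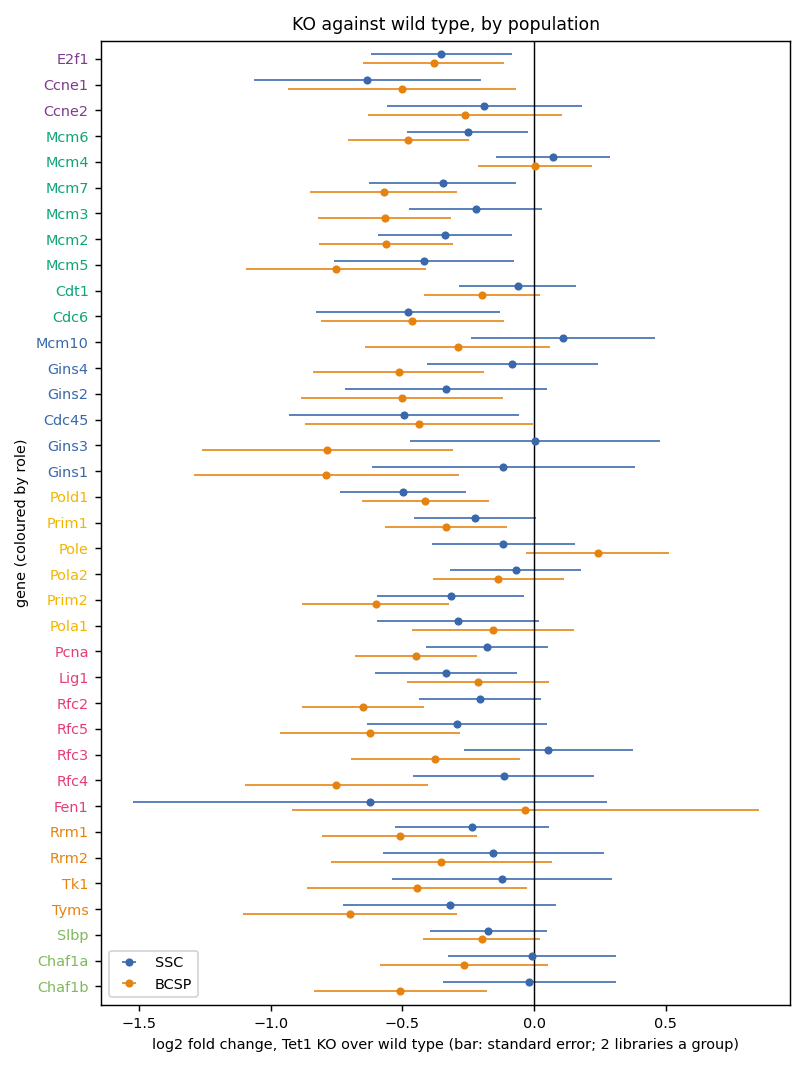
Log2 fold change of Tet1 KO over wild type for each of the 37 genes in SSC (blue) and BCSP (orange), with bars for the standard error and 2 libraries in each group. Points lie left of 0 for 33 genes in SSC and 35 in BCSP, and no gene passed an adjusted p of 0.05 in either.

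Genes lower in KO in all 4 pairs numbered 16 of 37, against 9.95% of all tested genes, and none was higher in all 4. They were Mcm2, Mcm3, Mcm5, Mcm6 and Mcm7 of the helicase, Cdc6, Cdc45, the polymerase and primase genes Pold1, Prim1 and Prim2, Pcna, Rfc2, Rfc5, Lig1, Rrm1 and Slbp. For 3 genes, Pold1, Prim1 and Rfc2, all 4 KO libraries lay below all 4 wild-type ones, as they did for 2.25% of all tested genes, and for none did they lie above.

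The 3 regulators of S phase entry were all below 0 for KO over both populations, with a median of -0.37. E2f1, the transcription factor whose targets include many of the genes here, stood at 19.2 and 14.7 CPM in wild-type SSC, 16.2 and 23.0 in wild-type BCSP, 14.9 and 11.7 in KO SSC, and 16.3 and 13.8 in KO BCSP. Its 2 highest libraries were wild type, but the genotypes overlapped, and the log2 fold change over both populations was -0.37 ± 0.17 (SE; edgeR, adjusted p = 0.632). Ccne1, the first of the cyclin E genes, was at 13.2 and 6.83 CPM in wild-type SSC, 7.90 and 11.7 in wild-type BCSP, 8.01 and 4.94 in KO SSC and 9.62 and 4.24 in KO BCSP. It spanned 3.13-fold from lowest to highest, and both round 2 KO libraries were at the bottom. Ccne2, its paralogue, was at 5.87 and 3.73 CPM in wild-type SSC, 6.76 and 3.96 in wild-type BCSP, 4.62 and 3.82 in KO SSC and 5.14 and 3.79 in KO BCSP. Here the split ran by round, with the 4 round 2 libraries at 3.73 to 3.96 CPM and below every round 1 library.

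Of the licensing genes, 7 of 8 were below 0 for KO over both populations, with a median of -0.42. Mcm5 (chr8:75109569-75128439 on mm10, as all gene positions here), whose promoter stretch is printed above, was at 33.2 and 21.3 CPM in wild-type SSC, 31.6 and 37.6 in wild-type BCSP, 27.1 and 13.7 in KO SSC, and 25.2 and 15.8 in KO BCSP. The KO mean was 20.5 ± 6.69 CPM against 30.9 ± 6.91 (SD, n = 4 each), a log2 fold change of -0.58 ± 0.23 (SE; edgeR, adjusted p = 0.614), with 1 wild-type library inside the KO range. Mcm2, at 36.4 and 26.2 CPM in wild-type SSC, 37.03 and 40.7 in wild-type BCSP, 28.9 and 20.6 in KO SSC and 29.5 and 23.2 in KO BCSP, overlapped in the same way. Its log2 fold change was -0.45 ± 0.17 (adjusted p = 0.614). Mcm6, the licensing gene of highest CPM, was at 47.4 and 36.1 CPM in wild-type SSC, 50.4 and 53.0 in wild-type BCSP, 38.7 and 31.4 in KO SSC and 40.9 and 33.5 in KO BCSP.

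Mcm3, another subunit of the ring, was at 35.2 and 27.1 CPM in wild-type SSC, 38.7 and 43.7 in wild-type BCSP, 30.7 and 22.8 in KO SSC and 32.3 and 23.3 in KO BCSP. All 4 of these genes had their highest library in round 2 wild-type BCSP and their lowest in round 2 KO SSC. Mcm4, which is named here after its values were seen, did not share this pattern although its product sits in the same ring. It was at 32.2 and 36.1 CPM in wild-type SSC, 39.8 and 37.3 in wild-type BCSP, 34.2 and 37.6 in KO SSC and 33.8 and 43.5 in KO BCSP, with its highest library in KO. Its log2 fold change was 0.04 ± 0.14 over both populations (edgeR, adjusted p = 0.956). Whether it differs from the other subunits was not tested. Mcm7 ranged from 23.0 to 47.8 CPM over the 8 libraries, Cdt1 from 20.4 to 28.2 and Cdc6 from 2.62 to 5.88.

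The 6 helicase activation genes were all below 0 for KO over both populations, with a median of -0.40. Mcm10 (chr2:4989714-5012791), which helps split and start the paired helicases, had the highest CPM of these. It was at 11.1 and 7.6 CPM in wild-type SSC, 11.9 and 9.40 in wild-type BCSP, 13.2 and 7.01 in KO SSC and 10.6 and 6.81 in KO BCSP, so the 4 round 2 libraries lay below the 4 of round 1. Gins2, a subunit of the GINS complex, was at 7.32 and 5.69 CPM in wild-type SSC, 6.55 and 11.3 in wild-type BCSP, 6.30 and 4.03 in KO SSC and 8.24 and 4.37 in KO BCSP. The round 2 wild-type BCSP library stood above all others for this gene, while its KO values overlapped those of wild type. The other members ranged from 2.41 to 8.61 CPM for Cdc45, 1.10 to 3.15 for Gins1, 1.40 to 3.34 for Gins3 and 4.88 to 11.7 for Gins4.

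Of the 6 polymerase and primase genes, 5 were below 0 for KO over both populations, with a median of -0.25. Pold1 (chr7:44532746-44548849), the catalytic subunit of polymerase delta, was at 27.5 and 21.7 CPM in wild-type SSC, 22.3 and 29.4 in wild-type BCSP, 18.6 and 16.3 in KO SSC and 20.7 and 18.2 in KO BCSP. The KO mean was 18.4 ± 1.81 CPM against 25.2 ± 3.81 (SD, n = 4 each), a log2 fold change of -0.46 ± 0.16 (SE). Its unadjusted p of 0.0112 was the lowest of the 37 genes and its adjusted p 0.609 by edgeR. Prim1 (chr10:128015168-128030037), the catalytic subunit of primase, was at 14.1 and 13.6 CPM in wild-type SSC, 15.4 and 17.5 in wild-type BCSP, 12.5 and 11.3 in KO SSC and 13.0 and 13.1 in KO BCSP. The genotypes did not overlap but lay close together, with a log2 fold change of -0.28 ± 0.15 (SE; adjusted p = 0.646). Pola1, the catalytic subunit of polymerase alpha and the member of its role with the lowest p between rounds, was at 9.89 and 8.05 CPM in wild-type SSC, 12.7 and 6.98 in wild-type BCSP, 7.38 and 7.31 in KO SSC and 9.29 and 8.39 in KO BCSP. No order by genotype was seen in Pola1. Pola2 ranged from 8.99 to 12 CPM, the narrowest span of the 37 at 1.33-fold, Prim2 from 6.76 to 13.2 and Pole from 8.58 to 13.2.

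The 7 genes of the clamp, its loader and the lagging strand were all below 0 for KO over both populations, with a median of -0.32. Pcna, the clamp, was at 68.0 and 58.4 CPM in wild-type SSC, 63.1 and 88.9 in wild-type BCSP, 54.6 and 57.2 in KO SSC and 59.6 and 51.7 in KO BCSP. The KO libraries lay at 51.7 to 59.6 CPM and overlapped only with the round 2 wild-type SSC library, with a log2 fold change of -0.31 ± 0.15 (SE; edgeR, adjusted p = 0.637). Rfc2 (chr5:134581366-134601805), a small subunit of the clamp loader, was at 20.1 and 20.1 CPM in wild-type SSC, 24.2 and 31.9 in wild-type BCSP, 18.4 and 16.5 in KO SSC and 19.2 and 16.6 in KO BCSP. All KO values were below all wild-type values, at 17.7 ± 1.34 against 24.1 ± 5.55 CPM (SD, n = 4 each), a log2 fold change of -0.43 ± 0.16 (SE; adjusted p = 0.614). Rfc2 also had the lowest p of the 37 in BCSP alone, where it was -0.65 ± 0.23 (adjusted p = 0.686). Rfc3, a second loader subunit, was at 10.8 and 7.55 CPM in wild-type SSC, 12.8 and 13.0 in wild-type BCSP, 12.2 and 6.89 in KO SSC and 11.6 and 8.30 in KO BCSP, with low values in 3 of the 4 round 2 libraries. Rfc4 ranged from 3.53 to 7.96 CPM, Rfc5 from 6.85 to 16.4, the ligase gene Lig1 from 16.0 to 30.9 and Fen1 from 0.0902 to 0.558.

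The 4 genes of nucleotide supply were below 0 as well, with a median of -0.33. Rrm1, the large subunit of ribonucleotide reductase, was at 54.3 and 38.8 CPM in wild-type SSC, 58.0 and 60.8 in wild-type BCSP, 50.6 and 28.4 in KO SSC and 48.8 and 34.6 in KO BCSP. Its lowest libraries were both KO of round 2, and the genotypes overlapped (log2 fold change -0.37 ± 0.20; edgeR, adjusted p = 0.646). Rrm2 (chr12:24708241-24714146), the small subunit that is made in S phase, was at 24.7 and 14.5 CPM in wild-type SSC, 29.3 and 21.0 in wild-type BCSP, 24.7 and 10.5 in KO SSC and 25.3 and 14.04 in KO BCSP. Its round 1 values, at 24.7 to 29.3 CPM, all lay above its round 2 values, at 10.5 to 21.0. Thymidylate synthase (Tyms) ranged from 4.19 to 14.1 CPM and thymidine kinase (Tk1) from 7.43 to 18.4, both lowest in round 2 KO BCSP.

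So were the 3 genes of chromatin assembly and histone mRNA, at -0.19. Chaf1a, the large subunit of CAF-1, was at 11.97 and 9.10 CPM in wild-type SSC, 12.3 and 12.4 in wild-type BCSP, 13.6 and 7.31 in KO SSC and 11.9 and 8.68 in KO BCSP. Its partner Chaf1b was at 7.64 and 5.05 CPM in wild-type SSC, 9.18 and 9.96 in wild-type BCSP, 7.43 and 5.10 in KO SSC and 8.14 and 5.32 in KO BCSP. For both, 3 of the 4 round 2 libraries were the lowest and that of wild-type BCSP was not. Slbp, which binds the stem-loop of histone mRNA, was flatter, at 33.0 and 29.9 CPM in wild-type SSC, 31.6 and 30.2 in wild-type BCSP, 31.8 and 23.98 in KO SSC and 26.8 and 26.9 in KO BCSP (KO over both populations, -0.19 ± 0.14; edgeR, adjusted p = 0.722).

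**Figure D3:**
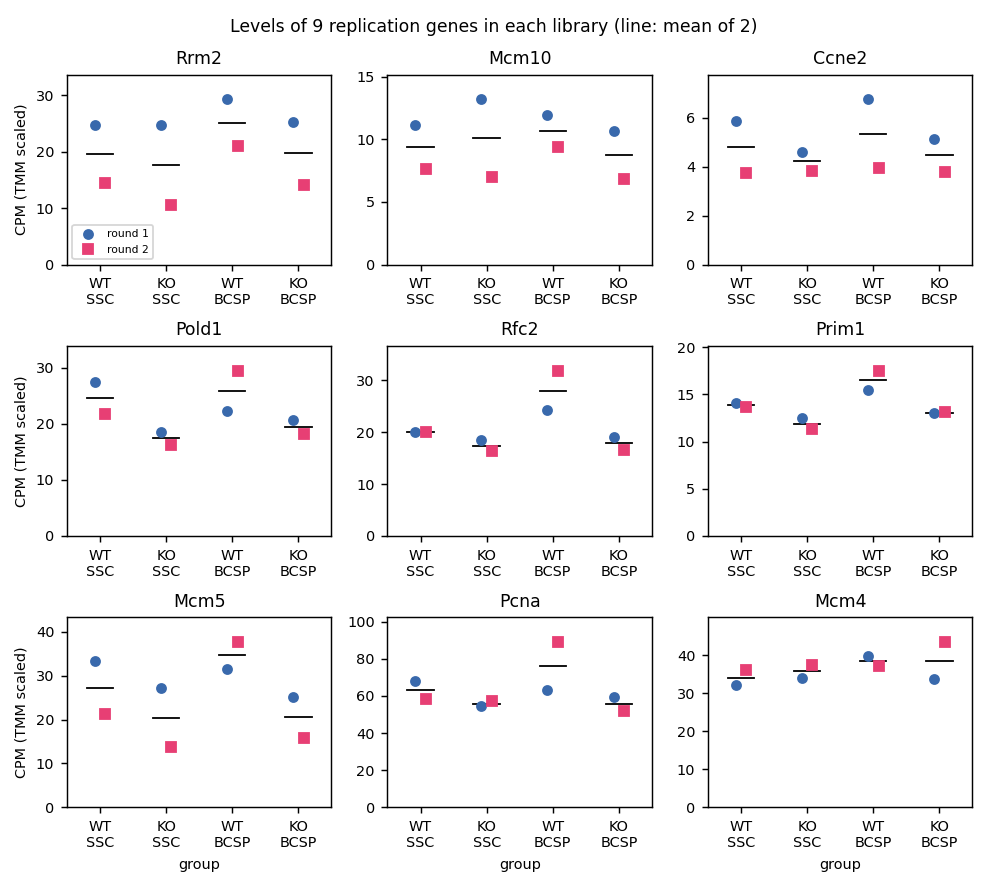
CPM of 9 replication genes in each library, by group, with blue circles for round 1, pink squares for round 2 and a line at the mean of 2. Rrm2, Mcm10 and Ccne2 (top row) are lower in round 2 in every group, Pold1, Rfc2 and Prim1 (middle row) are lower in KO in every pair, and Mcm5, Pcna and Mcm4 are shown for the licensing ring and the clamp.

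Between stem cells and progenitors no replication gene passed the test. The log2 fold change of SSC over BCSP was below 0 for 32 of 37, with a median of -0.14 against 0.01 over all tested genes. For tested genes with a mean CPM of at least 1 the median was -0.01, with 52.9% below 0. By edgeR 0 were called, against 0.00451% of all genes, and 0 had an unadjusted p under 0.05. DESeq2 and limma-voom called 0 of them too. For no gene did all 4 SSC libraries lie below all 4 BCSP libraries, against 1.05% of all genes, nor above. The lowest p of the 37, at 0.128, belonged to Rfc2, with 18.8 ± 1.74 CPM in SSC and 23.0 ± 6.72 in BCSP (SD, n = 4 each; edgeR log2 fold change -0.26 ± 0.16, adjusted p = 1). Chaf1b was at -0.35 ± 0.23 and Mcm3 at -0.23 ± 0.17 on the same scale. Within pairs the median of SSC minus BCSP was -0.02 in round 1 wild type and -0.03 in round 1 KO, against -0.60 in round 2 wild type and -0.12 in round 2 KO. With 1 library left out the median over both genotypes ran from -0.27, without the round 1 KO SSC library, to -0.07, without the round 2 wild-type SSC library.

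After trimmed-mean scaling, libraries of round 2 held fewer replication transcripts than those of round 1 in 3 of the 4 groups, and Rrm2 passed the test. Without that scaling the sum fell in wild-type BCSP too, from 774 CPM in round 1 to 700 in round 2. Round 2 was below round 1 for 33 of 37 genes over the 4 groups, with a median log2 difference of -0.29 against 0.00 over all tested genes. For tested genes with a mean CPM of at least 1 the median was -0.03, with 54.0% below 0. The summed level of round 2 was 0.864 of round 1. Of the 37, 1 gene fell past the test, Rrm2, while 1.76% of all tested genes were called in either direction. Rrm2 averaged 26.0 ± 2.20 CPM in round 1 and 15.01 ± 4.38 CPM in round 2 (SD, n = 4 each), a log2 fold change of -0.83 ± 0.17 (SE; edgeR, adjusted p = 0.0211). Another 11 genes had an unadjusted p under 0.05, all lower in round 2. Of the 22153 tested genes 1075 were lower and 1460 higher at that level. Among those with a mean CPM of at least 1, 869 were lower and 1147 higher. Mcm10 was next after Rrm2 at -0.61 ± 0.17 (edgeR, adjusted p = 0.111; DESeq2, 0.0329). By role, the medians were -0.58 for helicase activation, -0.58 for nucleotide supply and -0.53 for cyclin E and E2f1, against -0.28 for licensing and -0.14 for polymerases and primase. For 3 genes, Rrm2, Mcm10 and Ccne2, all 4 round 2 libraries lay below all 4 of round 1, against 3.61% of all tested genes. Without either KO SSC library Rrm2 no longer passed. Both fits leave 1 KO SSC library, which adds nothing to the round difference, so they rest on the same other groups.

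The round difference was uneven over the groups. It had a median of -0.40 in wild-type SSC with 36 genes lower, -0.54 in KO SSC with 34 lower and -0.44 in KO BCSP with 33 lower, but 0.14 in wild-type BCSP, where only 10 were lower. The round 2 wild-type BCSP library held the highest value of 24 of the 37 genes, and the round 2 KO SSC library the lowest of 21. Within SSC 13 of the 37 passed by edgeR, with a median of -0.49, where 9.69% of all tested genes passed. Within BCSP 0 passed, with a median of -0.12, where 0.251% of all genes passed. Without the round 1 wild-type BCSP library the median over the 4 groups moved to -0.48, and without that of round 2 to -0.47. A group left with 1 library adds nothing to the round difference, so both values rest on the same other groups. Deviations of genes from their mean went with exon length in that round 2 wild-type BCSP library at a Spearman rho of -0.498, against -0.244 to 0.357 in the others, and a correction for length took the median deviation of the 37 genes there from 0.43 to 0.28. Several marker sums also went with the round. The list of columnar and prehypertrophic chondrocytes (5 of 5 counted) was at 4056 and 2963 CPM in wild-type SSC, 3319 and 2829 in wild-type BCSP, 4093 and 2103 in KO SSC and 2597 and 1710.2 in KO BCSP. The osteoblast list (5 of 5) was at 287 and 195, 252 and 120.04, 278 and 139, and 204 and 110.1 CPM in the same order. The neutrophil list (6 of 6) was at 9.35 to 171 CPM in round 1 and 0.139 to 1.37 in round 2. The erythroid list (7 of 7) was at 4.69 to 36.96 CPM against 2.45 to 5.06, and the lymphoid list (4 of 4) at 0.145 to 43.2 against 0.0977 to 0.254. As sums, these 5 lists were lower in round 2 in each group. So was the sum of the sort markers (5 of 5 counted), at 96.0 to 183 CPM in round 1 and 72.3 to 126 in round 2. Of these markers Cd200 and Enpep were lower in each group, and Eng and Itgav differed in direction between groups. Thy1 was higher in each group, at 0.214 to 0.623 CPM in round 1 and 0.494 to 1.14 in round 2. Higher in round 2 in each group were the sums of the skeletal muscle list and the mast cell and megakaryocyte list. The former was at 1.63 to 9.28 CPM in round 1 and 4.33 to 18.0 in round 2. Its genes Acta1 and Myod1 were higher in each group, and Ckm was not. The latter list was at 1.69 to 3.05 CPM and 2.79 to 4.78. Its genes Itga2b and Kit were higher in each group, but Pf4 was lower in each. Pf4 was at 0.271 to 0.670 CPM in round 1 and 0 to 0.00772 in round 2. The part of these lists in the difference was not tested.

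**Figure D4:**
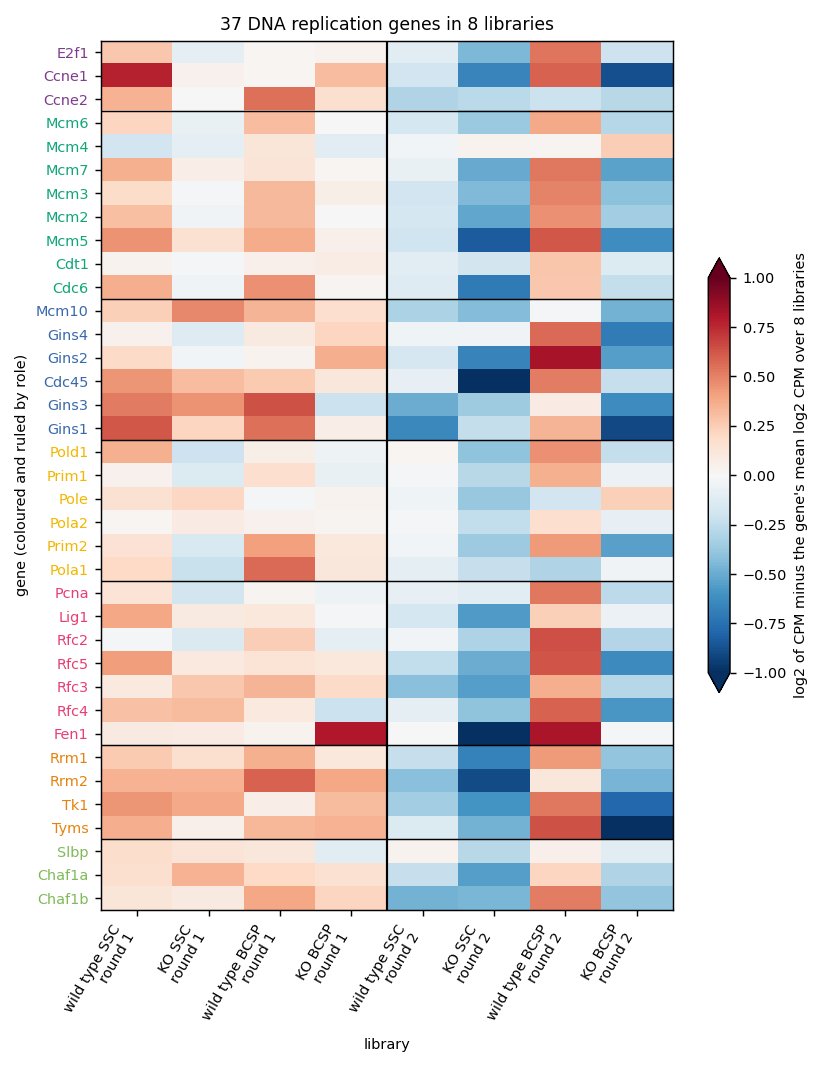
Log2 CPM of the 37 genes (rows, coloured and ruled by role) in the 8 libraries (columns, round 1 left and round 2 right), each minus the gene's mean, with red above and blue below the mean. The round 2 wild-type BCSP column is the reddest, with the highest value of 24 genes, and the round 2 KO SSC column the bluest, with the lowest of 21.

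Other genes of the cell cycle were set beside these from 3 lists. Of 55 other replication genes, such as Mcmbp, which binds MCM proteins, and Rfc1, the large subunit of the clamp loader, 45 were below 0 for KO over both populations, with a median of -0.17, and none passed the edgeR test. By round their median was -0.27 with 44 below 0, and none passed, with the nuclease gene Exo1 of lowest p at -0.82 ± 0.22 (adjusted p = 0.0845). The 24 genes of G2 and M phase had a median of -0.31 for KO, with 23 below 0 and none past the test. By round all 24 were below 0, with a median of -0.69, and 4 fell past the test. Those were Top2a, the topoisomerase that untangles chromosomes, at -0.75 ± 0.16 (adjusted p = 0.0289), the mitotic kinase gene Cdk1 at -0.87 ± 0.21 (0.0476), the spindle checkpoint kinase gene Bub1 at -0.98 ± 0.19 (0.0154) and the spindle gene Nusap1 at -0.79 ± 0.18 (0.0406).

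The 25 genes of G1 and E2F control, which act upstream of replication, had a median of -0.02 for KO, with 13 below 0, and of -0.10 by round. Of them 1 fell by round, Rbl1, the retinoblastoma relative p107, from 16.9 ± 0.823 to 9.82 ± 0.202 CPM (SD, n = 4 each; log2 fold change -0.78 ± 0.16, edgeR, adjusted p = 0.0221). The 2 genes of highest CPM in the list differed between rounds in opposite directions, neither past the test. Cdkn1c, which encodes the cyclin-dependent kinase inhibitor p57, was at 401 ± 43.3 CPM in round 1 and 295 ± 103 in round 2 (-0.50 ± 0.17, adjusted p = 0.211), and at -0.48 ± 0.22 for KO over both populations (adjusted p = 0.626). Myc, a transcription factor gene, was at 247 ± 16.0 CPM in round 1 and 359 ± 20.3 in round 2 (0.54 ± 0.15, adjusted p = 0.100). Of the 4 lists the 37 genes had the lowest median for KO over both populations, but in BCSP the G2 and M genes did, at -0.47 against -0.45, as they did by round; whether the lists differ was not tested. In the promoter windows, E2F words were found for 34.9% of 43 other replication genes, 33.3% of 18 G1 genes and 4.76% of 21 G2 and M genes. Of these G2 and M genes 90.5% had CCAAT and 76.2% the CHR core, against 55.2% and 13.8% of the 29 replication genes with a window.

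**Figure D5:**
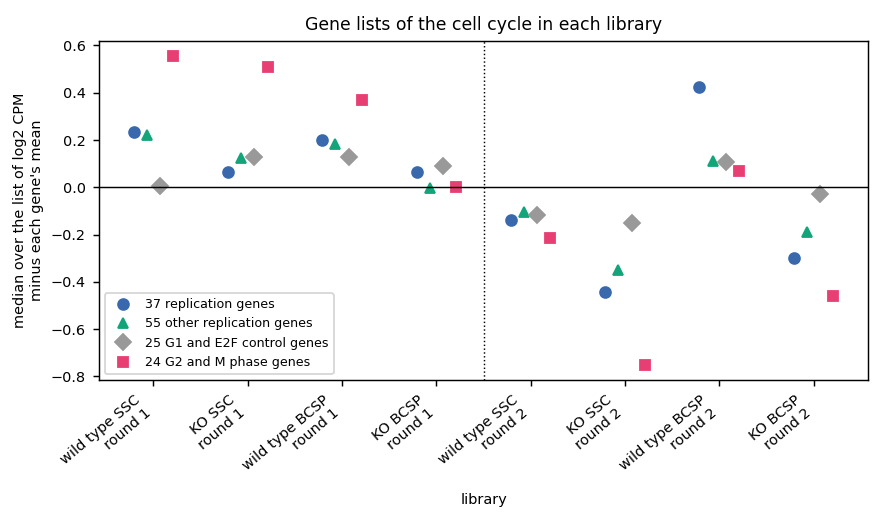
Median over each gene list of log2 CPM minus the gene's mean, for the 37 replication genes (blue circles), 55 other replication genes (green triangles), 25 G1 and E2F control genes (grey diamonds) and 24 G2 and M genes (pink squares) in the 8 libraries, round 1 left of the dotted line. In round 2 wild-type BCSP the replication genes reach 0.43 while the G2 and M genes are at 0.07, and in round 2 KO SSC they are at -0.44 and -0.75.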

How the data were processed

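The deposited table holds the authors' raw counts per gene for 8 libraries. STAR, featureCounts and DESeq2 are named, with build mm10, per the submitters' processing notes. Since the name of the table mentions htseq, the counting program is not settled; annotation release, strand and versions are not given in the sources used here. Column names SCC and BCP were read as SSC and BCSP, and 0 columns were left unused.

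Counts were scaled by TMM (factors 0.854 to 1.06), filtered with filterByExpr (minimum count 10, total 15) and fitted with edgeR 4.0.16 in R 4.3.3 (quasi-likelihood, robust, all 8 libraries, 1 mean per group). The residual degrees of freedom were 4, or 5 for the additive model of population and genotype and 3 for the round, with Benjamini-Hochberg adjustment over 22153 genes and a threshold of 0.05. DESeq2 1.42.0 and limma 3.58.1 (voom) were alternatives, as were size factors, no filter, length offsets, the round as block and leaving out libraries. Scripts were tested on simulated data. Log2 CPM used a prior count of 2. Positions and exon lengths came from GENCODE M21 (GRCm38, the build of mm10), to which 55230 of 55471 identifiers matched; promoters came from RefSeq.

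Values in every library are given for the gene of highest CPM in each of the 7 roles, the gene of lowest p per role by round, by population and by genotype, any past 0.05, and E2f1, Ccne1 and Ccne2. Genes of other lists are named by CPM or p. The genes and lists were chosen with earlier results of these data known. Libraries of 1 group were no copies of each other (chi-square of counts per degree of freedom, 142 to 348).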

Additional observations from a re-analysis of the deposited data

Results flagged for a closer look

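After trimmed-mean scaling, the round difference of the replication genes pointed in opposite directions in different groups. The median of round 2 minus round 1 on the log2 CPM scale was -0.40 in wild-type SSC, -0.54 in KO SSC and -0.44 in KO BCSP, but 0.14 in wild-type BCSP. Each value rests on 1 library against 1, and whether the groups differ was not tested. After a correction for exon length the medians were -0.41, -0.48, -0.32 and 0.04 in the same order. The scaling factor of the round 2 wild-type BCSP library was 0.854, the lowest of the libraries. Without scaling, the summed level in wild-type BCSP fell from 774 CPM in round 1 to 700 in round 2. The direction of the sum in that group thus depends on the scaling.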

How the results depend on the processing

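No direction called by a test was reversed by an alternative. None of the 37 genes passed for KO in SSC, KO in BCSP, their difference, KO over both populations or SSC against BCSP under any alternative run. By round, where 1 passed, 2 did with DESeq2 and 2 with no filter, 13 without both round 2 BCSP libraries, 13 within SSC, 0 within BCSP, and 0 to 19 with 1 library left out. The share of all tested genes called by round was 1.76% in the main fit, 4.59% with DESeq2 and 2.60% with no filter. It was 9.69% within SSC and 0.251% within BCSP. The fits with 1 library left out that called the most of the 37 also called the largest shares of all tested genes. The median for KO in BCSP was -0.16 without both round 2 BCSP libraries and -0.64 to -0.20 with 1 library left out. The median of the difference between populations was -0.10 to 0.50 with 1 library left out, so its sign is not settled.

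Counts over all genes moved more. For KO in SSC (1 called) they were 9 with DESeq2, 4 with no filter, 0 from the 4 SSC libraries alone and 1 to 4 with 1 library left out. For KO in BCSP (1 called) they were 20, 38 and 1 to 2 with DESeq2, no filter and 1 library left out. For KO over both (3 called) they were 103 with DESeq2, 1 with voom, 234 with no filter, 1 with length offsets, 11 without both round 2 BCSP libraries and 1 to 12 with 1 library left out. For SSC against BCSP (1 called) they were 39 with DESeq2, 66 with no filter, 36 without both and 1 to 3. By round (390 called) they were 937 with DESeq2, 861 with no filter, 714 with length offsets, 1856 without both, 1955 within SSC, 49 within BCSP and 275 to 3909. The cause was not tested.

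With the round as a replicate block, all-gene counts were 2 (KO in SSC), 3 (KO in BCSP), 2 (their difference), 28 (KO over both) and 2 (SSC against BCSP), and with the block and length offsets 3, 8, 1, 102 and 44. The medians of the 37 genes for KO were -0.22, -0.49 and -0.37 with the block, and no call among them changed. The labels give only a shared number. Deviations of same-round libraries correlated at 0.0234 to 0.240, a hint from the data only. All 8 libraries correlated best with one of their own round. This follows from those values and adds nothing to them, as the 2 libraries of a group mirror each other around their mean. Depth limits Fen1 most, with 12 to 80 counts.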
